A study of Homo sapiens with 13 samples.

Results

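FOXA1 binding was described at the loci of 3 GATA transcription factors, GATA2, GATA3 and GATA6, in Ishikawa and Hec1A cells, which are human cell lines grown from endometrial cancers. The members are the FOXA1 peaks whose centre lies in fixed hg19 windows, which are chromosome 3 from 128.0 to 128.4 Mb for GATA2, chromosome 10 from 7.8 to 8.8 Mb for GATA3 and chromosome 18 from 19.45 to 20.1 Mb for GATA6. The windows hold 34 of the 68107 peaks of both lines, namely 27 of 54855 Ishikawa peaks and 7 of 13252 Hec1A peaks. Binding was mapped by chromatin immunoprecipitation and sequencing (ChIP-seq) of cross-linked cells with a rabbit FOXA1 antibody, and the labels name no treatment. The Ishikawa list was called by the authors on 6 pooled ChIP libraries with 343739762 tags against 2 pooled inputs, and the Hec1A list on 3 pooled ChIP libraries with 143055568 tags. For Hec1A, 2 input libraries are labelled as well, and the name of the list refers to inputs, but the recorded call names none. Whether input was used in the Hec1A call thus remained unclear. Tags are sequenced fragments counted by the position of their mapped 5′ end, and input is chromatin sequenced without immunoprecipitation. Each line thus has 1 list and no replicate values, so no difference between the lines could be tested and all intervals cover counting error only.

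GATA proteins are zinc finger transcription factors that bind the letters GATA in DNA. GATA2 is known as a factor of blood stem cells and as a partner of the progesterone receptor in the uterus. GATA3 directs T cell fate and luminal breast epithelium, and GATA6 acts in the development of endoderm and heart. FOXA1 is a forkhead factor that binds closed chromatin and opens it for hormone receptors and other factors, and in breast cancer cells it is known to bind together with GATA3 and the oestrogen receptor.

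The sequences just before the genes are shown because forkhead factors bind cores such as TGTTTA and TGTTTG, so they show whether these letters stand in front of each GATA gene. All 3 genes were matched by symbol in the RefSeq promoter table of GRCh38.p14, which gives 2 starts for GATA2, 6 for GATA3 and 1 for GATA6. Printed are the 250 bases before the most upstream start of each gene, in the direction of the gene, with TGTTTA and TGTTTG in capitals where present on either strand. The coordinates are chr3:128493202-128493451 on the minus strand for GATA2, chr10:8045083-8045332 on the plus strand for GATA3 and chr18:22169339-22169588 on the plus strand for GATA6.
GATA2: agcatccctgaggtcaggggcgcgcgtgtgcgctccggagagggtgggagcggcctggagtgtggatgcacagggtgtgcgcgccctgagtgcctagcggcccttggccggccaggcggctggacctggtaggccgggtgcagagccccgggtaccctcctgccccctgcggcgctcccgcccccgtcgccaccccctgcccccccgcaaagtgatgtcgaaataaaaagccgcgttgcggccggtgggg
GATA3: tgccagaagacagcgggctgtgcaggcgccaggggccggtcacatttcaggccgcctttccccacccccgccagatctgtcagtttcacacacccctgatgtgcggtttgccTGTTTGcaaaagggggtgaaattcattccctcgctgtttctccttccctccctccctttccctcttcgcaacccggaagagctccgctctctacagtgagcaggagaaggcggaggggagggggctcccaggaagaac
GATA6: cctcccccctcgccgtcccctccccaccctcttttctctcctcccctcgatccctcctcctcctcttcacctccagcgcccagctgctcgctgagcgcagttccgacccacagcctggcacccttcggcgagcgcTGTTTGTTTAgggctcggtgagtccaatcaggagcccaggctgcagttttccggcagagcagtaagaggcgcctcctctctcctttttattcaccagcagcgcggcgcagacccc

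GATA6 had both cores, overlapping each other, with their first bases 115 and 111 bases before the start. GATA3 had TGTTTG 138 bases before its most upstream start, as part of the longer TGTTTGC, and neither TGTTTA nor TGTTTG was found in this window of GATA2. Of all 35116 promoter windows of this length in the table, 21.6% held TGTTTA or TGTTTG on either strand and 6.09% held TGTTTAC or TGTTTGC. Of the other GATA3 starts, 3 held 1 core each, and the other GATA2 start held none. The peaks are given in hg19, so their distance to these starts, and whether they lie in exons, introns or promoters, was not analysed here. Sites are therefore named by their window and are not assigned to the gene. In the GRCh38.p14 gene order of RefSeq, GATA2 stands between the protein-coding genes DNAJB8 and RPN1, GATA3 between TAF3 and CELF2, and GATA6 between MIB1 and CTAGE1.

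Each window held exactly 1 site that was listed in both lines, and in each window that site was the strongest Hec1A peak. In the GATA3 window it was the only Hec1A peak. These 3 sites were also among the 4 strongest Ishikawa members. Peaks counted as shared when their deposited intervals overlapped by at least 1 bp. In all, 3 of 27 Ishikawa members (11.1%, 95% Wilson interval 3.85% to 28.1%) had a Hec1A partner, beside 12.8% of the whole Ishikawa list. Of the Hec1A members, 3 of 7 (42.9%, 15.8% to 75%) had an Ishikawa partner, beside 52.9% of the whole Hec1A list. The intervals of both shares include the values of their lists. They are wide at 27 and 7 members and treat each peak as an independent draw, so no conclusion is drawn from this.

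**Figure D1:**
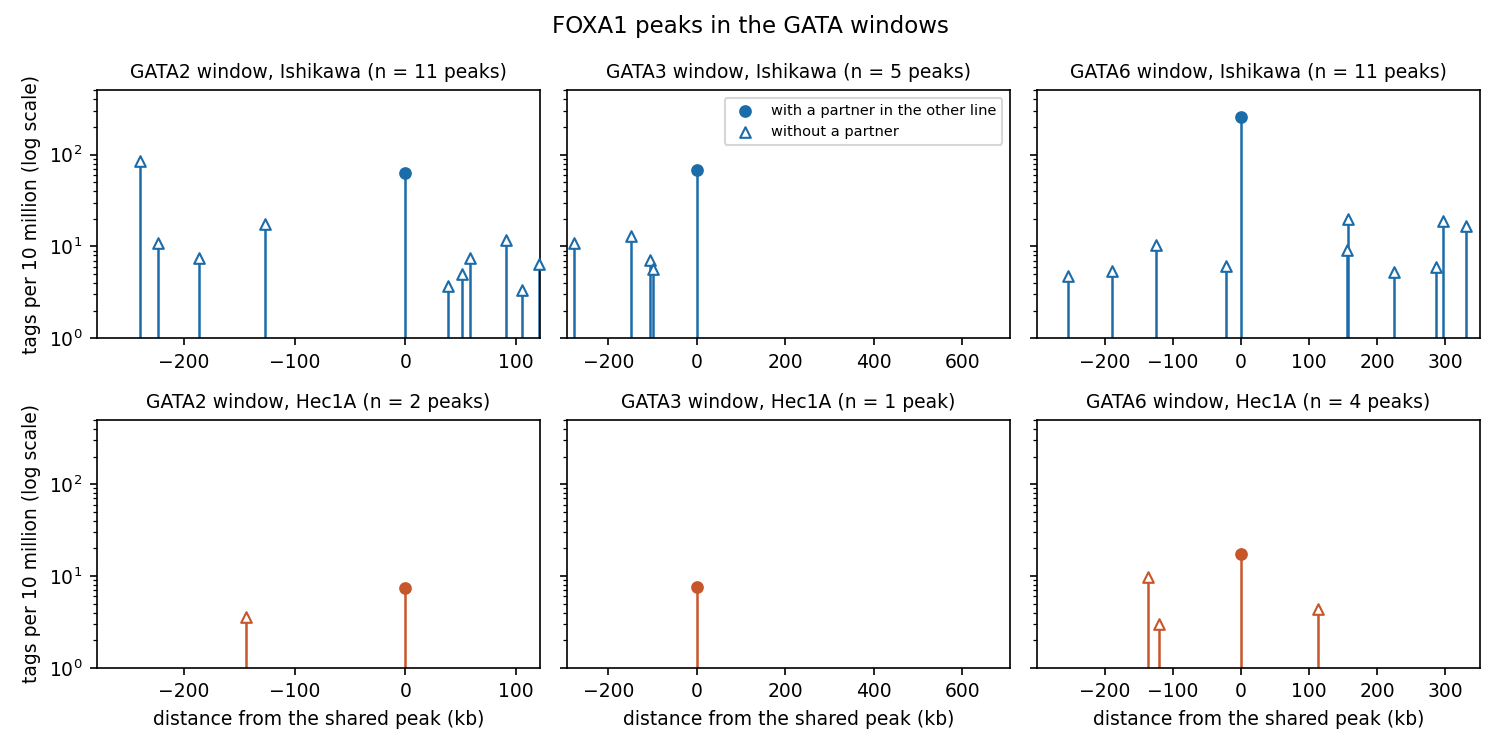
FOXA1 peaks of the GATA2, GATA3 and GATA6 windows, Ishikawa above and Hec1A below. The x axis is the distance in kb from the site listed in both lines, the y axis is the signal in tags per 10000000 on a log scale, and filled circles mark peaks with a partner in the other line. In each window the filled circle of Hec1A, at 7.41, 7.69 and 17.6, is its highest peak, and in the GATA3 window its only peak.

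The windows differed in how densely they were occupied. The GATA2 window, 400 kb long, held 11 Ishikawa peaks and 2 Hec1A peaks. The GATA6 window, 650 kb long, held 11 Ishikawa peaks and 4 Hec1A peaks, and the GATA3 window, 1000 kb long, held 5 Ishikawa peaks and 1 Hec1A peak. The GATA2 window thus had 27.5 Ishikawa peaks per Mb, beside 20.1 along chromosome 3, and the GATA3 window 5.0 beside 16.8 along chromosome 10. The GATA6 window had 16.9 Ishikawa peaks per Mb, beside 17.1 along chromosome 18. Hec1A peaks per Mb were 5.0 in the GATA2, 1.0 in the GATA3 and 6.15 in the GATA6 window. Along the same chromosomes they were 5.76, 4.4 and 3.09. When the autosomes and chromosome X were divided into tiles as long as the window, 24.1% of tiles held at least as many Ishikawa peaks as the GATA2 window, 87.3% as the GATA3 window and 56.8% as the GATA6 window. For Hec1A these shares were 43.4% for GATA2, 86.1% for GATA3 and 32.6% for GATA6. None of the windows was among the densest of its length, and the GATA3 window was among the sparser ones. Tiles over gaps of the assembly were included.

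The GATA6 window held the strongest site, at chromosome 18, 19749258 to 19749610 in Ishikawa and 19749308 to 19749562 in Hec1A. The peak centres lay 1.0 bp apart. The signal, which is the authors' tag count of the peak per 10000000 tags, was 256.4 in Ishikawa and 17.6 in Hec1A. In Ishikawa this was 124.28 times the input and 118.07 times the level of the surrounding 10 kb, which is called the local fold here. In Hec1A the local fold was 22.7, and the Hec1A list gives no input values. Among the 1331 Ishikawa peaks of chromosome 18 this peak had the highest local fold and the highest focus ratio, 0.991, which is the fraction of tags gathered around the peak centre. By findPeaks score, the tag number by which the authors' peak caller ranks peaks, it was number 240 of the Ishikawa list, within its top 0.438%. Its Hec1A counterpart was number 693 of the Hec1A list, within its top 5.23%. This single peak held 71.4% of the Ishikawa signal summed over the window's peaks, and the same site held 50.7% of the Hec1A signal.

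The other GATA6 members were far weaker in Ishikawa, and none of them had a partner in the other line. Of the whole Ishikawa list, only 12.8% of peaks had a Hec1A partner. The remaining 10 Ishikawa peaks had signals of 4.71 to 19.9. The strongest of them, at 19905567 to 19905919, had a signal of 19.9 and a neighbour of 9.25 only 1.17 kb away. This neighbour, at 19904394 to 19904746, had a local fold of 4.4, not far above the 4.0 required. Peaks at 20046476 to 20046828 and at 20079420 to 20079772 had signals of 19.0 and 16.6. Of these, the peak at 20046476 had the highest fold over input of the 10, at 18.41, which rests on only 4.0 input tags. The peak at 19624473 to 19624825 had a signal of 10.4 and lay 4.46 kb from a Hec1A peak, and that at 19727776 to 19728128 had 6.08.

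Hec1A had 3 further peaks in the GATA6 window, none of which overlapped an Ishikawa peak. Of the whole Hec1A list, 52.9% of peaks had an Ishikawa partner. The strongest, at 19612409 to 19612663, had a signal of 9.79 and a local fold of 12.61, and lay within the top 12.7% of the Hec1A list by score. Its nearest Ishikawa peak was 12.1 kb away and had a signal of 10.4. The same Ishikawa peak was the nearest to the Hec1A peak at 19628987 to 19629241, which had a signal of 3.01. A Hec1A peak at 19862481 to 19862735 had a signal of 4.33 and lay 42.0 kb from the nearest Ishikawa peak. The Hec1A peaks of this window all had clonal folds under 1, from 0.64 to 0.69, beside a median of 0.72 in the whole Hec1A list. The clonal fold is the authors' ratio of expected to observed unique tag positions in a peak, and it is high where many tags share a position. Of the 11 Ishikawa peaks of the window, 3 had a clonal fold above 1, beside 25.1% of the Ishikawa list. The highest was 1.47, at the peak at 19904394.

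The GATA3 window had a single strong site, at chromosome 10, 8092587 to 8092939 in Ishikawa and 8092641 to 8092895 in Hec1A, with centres 5.0 bp apart. Its signal was 68.1 in Ishikawa and 7.69 in Hec1A. The local fold was 36.18 in Ishikawa and 13.48 in Hec1A, and the fold over input in Ishikawa was 52.81. The focus ratio was high in both lines, at 0.967 in Ishikawa and 0.955 in Hec1A. By score the site lay within the top 3.38% of the Ishikawa list and the top 19.0% of the Hec1A list. It held 64.8% of the Ishikawa signal of the window and was its only Hec1A peak.

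The remaining 4 Ishikawa peaks of the GATA3 window all lay before this site, at lower coordinates. The peaks at 7943223 to 7943575 and at 7815796 to 7816148 had signals of 13.1 and 11. The peaks at 7987124 to 7987476 and at 7994034 to 7994386 lay 6.91 kb apart and had signals of 7.13 and 5.7. Those last 2 were among the more clonal members, with clonal folds of 1.45 and 1.72. Beyond the strong site no Ishikawa peak followed for 722.0 kb, past the end of the window, while the median distance between neighbouring Ishikawa peaks was 29.2 kb. Of 54831 such distances, 0.243% were at least as long. In Hec1A the next peak followed after 1250.0 kb, and 2.19% of its distances were at least as long. Before the site the gap was 98.6 kb in Ishikawa, and 12.9% of distances were at least as long. In Hec1A that gap was 354.0 kb, and the share was 17.2%. The gaps at this site were examined after the peaks were seen. The next protein-coding gene after GATA3 in the RefSeq order is CELF2, an RNA-binding protein gene.

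The GATA2 window differed from the others in holding a pair of strong Ishikawa sites, of which 1 was listed in Hec1A. The shared site, at chromosome 3, 128278332 to 128278684 in Ishikawa and 128278355 to 128278609 in Hec1A, had a signal of 63.6 in Ishikawa and 7.41 in Hec1A. Its local fold was 51.26 in Ishikawa and 7.76 in Hec1A, and its fold over input in Ishikawa was 35.18. By score it lay within the top 3.65% of the Ishikawa list, and it was number 2656 of the Hec1A list. The centres lay 26 bp apart, and the Hec1A interval lay wholly within the Ishikawa interval, as at the GATA3 and GATA6 sites, with an overlap of 255 bp.

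The strongest Ishikawa peak of the GATA2 window, at 128038691 to 128039043, had no Hec1A partner. Its signal was 85.0, its local fold 50.01 and its fold over input 54.99. The next Hec1A peak was found at a distance of 95.2 kb. The Hec1A call required a score of at least 32.0 tags and applied further filters on local fold and clonality. The tag count of Hec1A at this site was not analysed here, so the site is described as not listed in Hec1A. The other unshared Ishikawa peaks of the window with the highest scores were at 128151677 to 128152029, 128369557 to 128369909, 128054334 to 128054686 and 128336446 to 128336798. Their signals were 17.4, 11.8, 10.8 and 7.42. The peaks at 128369557 and 128151677 had the highest folds over input of these, 22.75 and 22.41, which rest on only 2.0 and 3.0 input tags.

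The second Hec1A peak of the GATA2 window, at 128133990 to 128134244, stood close to the limits of detection. Its signal was 3.57, its score of 33.0 was just above the threshold of 32.0 tags, and its local fold of 4.06 was just above the 4.0 required. Its clonal fold was 1.35, the highest among the Hec1A members. On chromosome 3 as a whole, 50.6% of Hec1A peaks had a clonal fold above 1, beside 28.8% of the whole Hec1A list. The local background of the Hec1A peaks in the GATA2 window, computed as signal divided by local fold, was 0.955 at the shared site and 0.879 at the other. The median over Hec1A peaks was 1.03 on chromosome 3 and 0.81 in the whole list. The part of clonality and background in the GATA2 values was not tested.

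The 27 Ishikawa members divided into a strong and a weak range. The 4 strong sites described above had signals of 63.6 to 256.4, and the other 23 had signals of 3.37 to 19.9. Between these ranges lay 15.2% of the whole Ishikawa list, and 3.83% of the list reached the strong range. Of the strong sites 3 had a Hec1A partner, and of the 2002 Ishikawa peaks with a score at least as high as the weakest of them 44.9% had one. None of the 23 weak members had a partner, beside 8.19% of the 44195 Ishikawa peaks in the same score range. The split into ranges was made after the values were seen. The median Ishikawa member had a signal of 9.25, a local fold of 7.33 and a fold over input of 7.16, beside 9.69, 6.93 and 7.8 in the whole list. By their medians the Ishikawa members were thus ordinary peaks of the list. Their input tags ranged from 2.0 to 9.0 with a median of 5.0, which was also the median of the list. The median Hec1A member had a signal of 7.41 and a score of 108.0, beside 4.96 and 57.5 in the whole list. Above the list's medians stood 5 of 7 by score, 4 of 7 by signal and 4 of 7 by local fold.

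**Figure D2:**
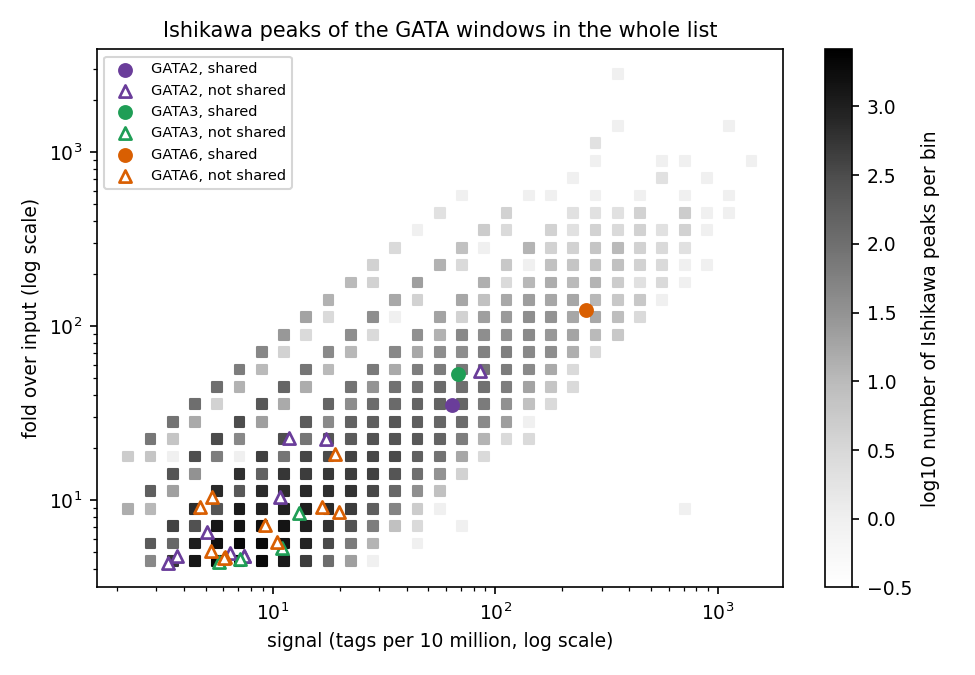
Ishikawa members of the GATA windows on the whole Ishikawa list. The x axis is the signal in tags per 10000000 and the y axis the fold over input, both on log scales, and grey squares give the number of listed peaks per bin. The 3 shared sites and the unshared GATA2 site of 85.0 stand apart from the other 23 members, which lie at 19.9 or below.

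At all 3 shared sites the signal was higher in Ishikawa than in Hec1A. Most of the 7012 shared pairs of the whole lists had this direction too, with a median ratio of 3.53. The ratio of Ishikawa to Hec1A signal was 14.6 at the GATA6 site (95% interval 12.8 to 16.6, exact binomial on 8813 and 252 tags). It was 8.86 at the GATA3 site (7.31 to 10.8, on 2341 and 110 tags) and 8.58 at the GATA2 site (7.06 to 10.5, on 2186 and 106 tags). The GATA6 interval did not overlap the others, while those of GATA3 and GATA2 overlapped each other. These intervals leave out the variation between libraries. The pools also differed as a whole, since 9.66% of Ishikawa tags and 1.12% of Hec1A tags lay in peaks, and the part of this in the ratios was not tested.

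**Figure D3:**
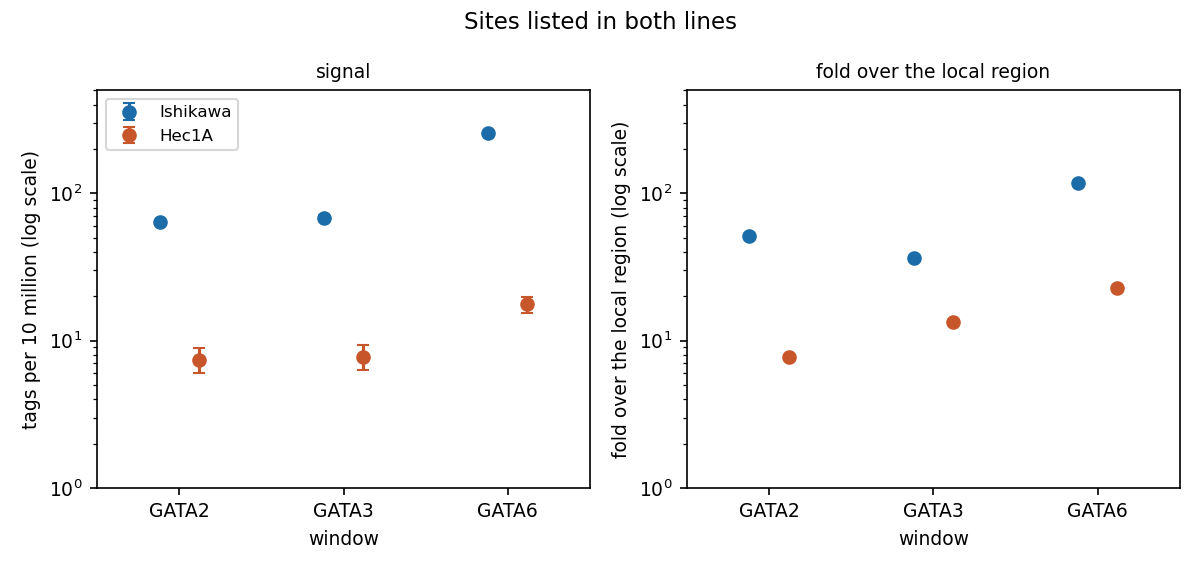
The 3 sites listed in both lines. The left panel gives the signal in tags per 10000000 with exact 95% Poisson intervals, which cover counting error only, and the right panel the local fold, both on log axes, with Ishikawa on the left of each pair. Signals of 256.4, 68.1 and 63.6 in Ishikawa stand above 17.6, 7.69 and 7.41 in Hec1A.

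The 3 ratios were above the median of all sites shared by the lines. Over all 7012 shared pairs the median ratio was 3.53, and 25% of pairs lay below 2.1 and 25% above 5.83. A ratio above that of the GATA6 site was found in 3.76% of pairs, above that of the GATA3 site in 10.6% and above that of the GATA2 site in 11.3%. Among the 899 pairs whose Ishikawa score was at least that of the GATA2 site, a comparison chosen after the values were seen, the median ratio was 8.25. There 24.2% of pairs exceeded the GATA6 site, 46.4% the GATA3 site and 47.8% the GATA2 site, and 25% of pairs lay above 14.3. The GATA2 and GATA3 ratios were thus close to the median of these pairs. Among the 133 pairs whose Ishikawa score was at least that of the GATA6 site, likewise chosen after the values were seen, the median ratio was 13.1 and 46.6% exceeded the GATA6 site.

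**Figure D4:**
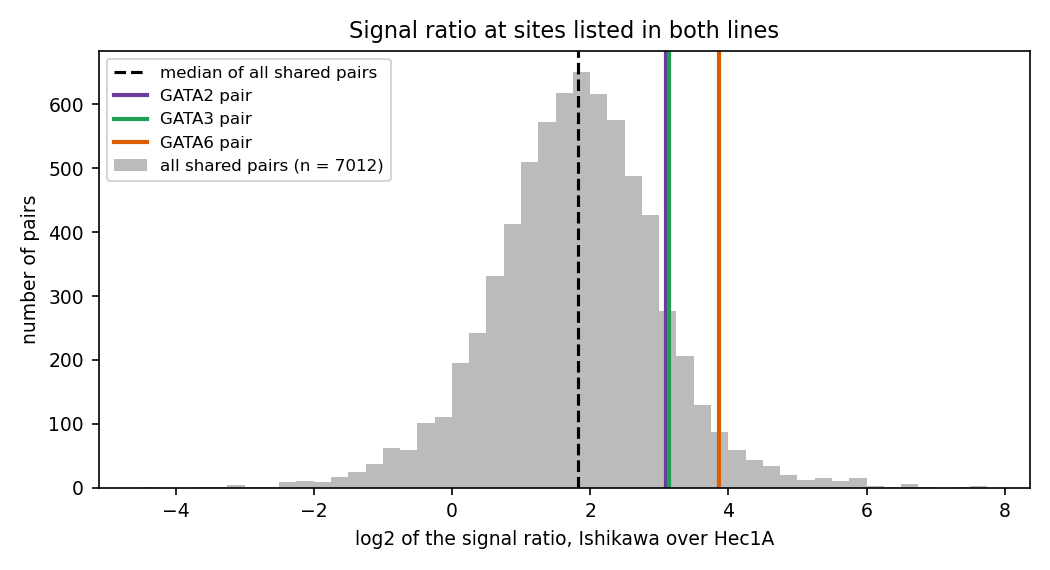
Signal ratio of Ishikawa over Hec1A on a log2 scale for all 7012 sites listed in both lines. Grey bars count pairs, the dashed line is their median of 3.53, and the coloured lines mark the GATA2, GATA3 and GATA6 pairs, all of which lie above the median.

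The order of the sites depended on the scale. By local fold, the ratio of Ishikawa to Hec1A was 6.61 at the GATA2 site, 5.2 at the GATA6 site and 2.68 at the GATA3 site, beside a median of 1.9 over all shared pairs. Over the 899 pairs at least as strong in Ishikawa as the GATA2 site, the median of this ratio was 3.51, with 25% of pairs above 6.02. On this scale the GATA3 site was thus below the median of these pairs and the GATA2 site in their upper 25%. The GATA6 site was exceeded by 30.8% of them. Among the 133 pairs at least as strong in Ishikawa as the GATA6 site, the median was 4.39 and 42.9% exceeded it. The ratio of local backgrounds was 1.3 at the GATA2 site, 2.8 at the GATA6 site and 3.3 at the GATA3 site, beside a median of 1.84. The backgrounds refer to the peak width, which the authors set to 353 bp for Ishikawa and to 254 bp for Hec1A. The part of the local background in the signal ratios was not tested.

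The spacing of the members was compared with that of the lists. When Ishikawa peaks with centres within 10 kb of each other were chained, each window had 1 chain of 2 peaks, and none was longer. Such chains held 18.2% of the GATA2 members, 40.0% of the GATA3 members and 18.2% of the GATA6 members, beside 33.9% of the whole Ishikawa list, where the longest chain held 9 peaks. At 20 kb these shares were 72.7% for GATA2, 40.0% for GATA3 and 36.4% for GATA6, beside 59.4% of the list, so that the GATA2 share stood below the list at 10 kb and above it at 20 kb. None of the 4 strong sites was in a chain at 10 kb, but at 20 kb the GATA2 site at 128038691 was chained with a peak 15.6 kb away. None of the 7 Hec1A members was chained at 10 kb, beside 15.8% of the Hec1A list. The next peaks outside the windows include some that are stronger than most members. Ishikawa had a peak with a signal of 25 at chromosome 18, 20139435 to 20139787, 39.6 kb beyond the GATA6 window. Hec1A had a peak of 21.8, shared with Ishikawa, at chromosome 3, 128445624 to 128445878, 45.8 kb beyond the GATA2 window, which is more than any Hec1A member reached.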

How the data were processed

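The submitters' processing notes name HOMER 4.7.2, Bowtie 1.1.2 and SAMtools 1.3.1, with the build hg19. The authors, per the file headers, pooled the ChIP tags of each line and called peaks with findPeaks in factor style at a false discovery rate of 0.001, with filters on local fold (4.0) and clonality (2.0). A fold over input of 4.0 was required in Ishikawa, and the recorded Hec1A command names no input, although the list's name refers to inputs. Per the labels' protocols, 4 Ishikawa and 2 Hec1A ChIP libraries were made with ThruPLEX, and 2 Ishikawa and 1 Hec1A with TruSeq. Both kits were mixed in each pool, so their effects cannot be told apart. The deposited signal is a tag count per 10000000, the deposited focus ratio is a fraction, the deposited score counts tags, and the folds deposited for local region, input and clonality are ratios. The deposited p-values were not used. These are the authors' values per peak.

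Windows, overlaps, distances, chains of peaks and tiles were computed in Python 3.11.15 with pandas 2.3.3, NumPy 2.4.6 and SciPy 1.17.1. The procedures for overlaps, nearest distances and chains were tested on simulated lists. Tag numbers behind ratios were computed from the rounded deposited signals. Tags without molecular identifiers are not independent molecules. The members and lists were chosen with earlier results of these data known. The motif letters were chosen with the promoter sequences in view. Named were all shared pairs, the 5 unshared Ishikawa peaks of highest score in each window and the unshared Hec1A peaks. Alternatives covered folds, clonality, list length, overlap, scale and chaining distance.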

Additional observations from a re-analysis of the deposited data

How the results depend on the processing

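Of 38 alternatives that could alter a value, 16 stayed within 1.5 times the reported count or within the counting interval, and 22 did not. With a local fold of 8 or more in both lists, the GATA2, GATA3 and GATA6 windows held 4, 3 and 3 Ishikawa peaks, and Hec1A kept 0 in the GATA2 window and 2 in the GATA6 window. The shared GATA2 site was lost there, as its Hec1A fold was 7.76. With an input fold of 8 or more, 5, 2 and 6 Ishikawa peaks were left, and with Ishikawa cut to the length of the Hec1A list 3, 1 and 4. At a clonal fold of 1 or less, 2 Ishikawa peaks were left in the GATA3 window and 1 Hec1A peak in the GATA2 window. These lower counts follow from the thresholds. With equal list lengths, 37.5% of Ishikawa members (3 of 8) had a Hec1A partner, beside 29.9% of the shortened list. Requiring overlap of 50% of the shorter interval, or centres within 1 kb, left the shared sites at 3. The Ishikawa share then stayed at 11.1%, beside 12.4% and 13.5% of the list. Per bp of peak width, the signal ratios of Ishikawa to Hec1A were 10.5 for GATA6, 6.37 for GATA3 and 6.18 for GATA2, and by local fold 5.2, 2.68 and 6.61. Chaining within 5 kb gave 1 chain of Ishikawa peaks and within 20 kb 6, in place of 3. Fits without single libraries were not possible on pooled lists. No paired analysis was possible because only pooled lists, 1 for Ishikawa and 1 for Hec1A, were analysed.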
